A study of Mus musculus with 36 samples.

Results

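The livers of mice fed 3,5-diethoxycarbonyl-1,4-dihydrocollidine (DDC) for 28 days, called DDC28, were compared with the livers of mice on control diet, called CTLD. The members of the comparison were the genes that reached 10 in no fewer than 4 of these 8 libraries, which kept 11089 of the 29546 genes listed. A gene below 10 in every liver of a group could pass only through the other group. This was so for 344 genes with 10 in 4 of 4 DDC28 and 0 CTLD libraries, and for 133 genes the other way. Such genes could hardly be called in the opposite direction, so counts of rises and falls in lists partly follow the filter. The same holds for each tested gene named below whose values are all under 10 in one group. Lcn2, Gpnmb, Mmp12, Trem2, Cxcl5, Prom1, Krt19, Dbp, Per3 and Sult1e1 are among them. The study set out to compare cholestasis, an impaired flow of bile, between models in C57BL/6 mice, with liver RNA sequenced from 4 livers in each of 9 groups, 36 libraries in all. DDC28 mice received DDC at 0.1% (wt/wt) of the diet for 28 days, and CTLD mice received control diet without DDC. DDC7 mice, fed the same DDC diet for 7 days, and BDL28 mice, whose bile duct had been ligated 28 days earlier, with their sham-operated SHAM controls, are used here only where the day 28 response to DDC differed from theirs. No genetic modification is named for any of these groups. The labels give neither sex, age nor hour of sampling, nor the day on which CTLD livers were taken.

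DDC is a porphyrinogenic compound: in the liver it gives rise to an alkylated porphyrin that blocks ferrochelatase, the enzyme that inserts iron into heme. Porphyrin collects and forms plugs in small bile ducts, and long feeding is used as a model of injured bile ducts with a ductular reaction, scarring around the portal tracts and Mallory-Denk bodies, which are hepatocyte inclusions of keratins 8 and 18. Hepatocytes answer electrophiles through NRF2, a transcription factor that switches on detoxifying enzymes, and bile acids through FXR, a nuclear receptor that lowers their synthesis and uptake and raises their export.

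Each liver was read from the 3′ ends of its messenger RNAs (a QuantSeq library), and the values are counts that the authors had scaled to each library's size, called normalized counts. The DDC28 libraries held 2791543 to 3449306 reads and 17584 to 18534 genes with a read, and the CTLD libraries 2081093 to 2912971 reads and 15816 to 17366 such genes. At these depths 1 read was worth 0.712 to 0.919 normalized counts in DDC28 livers and 1.01 to 1.62 in CTLD livers, so a gene at 0 may have been below 1 read. Values are given in the order of replicates 1 to 4. The 4 DDC28 livers did not scatter evenly. Over the genes tested, the deviations from the group mean had a correlation of 0.06 between replicates 1 and 2 and of 0.02 between replicates 3 and 4, but of -0.54 to -0.50 between replicates of different pairs. Deviations from a group's own mean cancel out, so even unrelated livers correlate negatively on this measure. Between CTLD livers the correlations were -0.47 to -0.12. More than 2-fold apart were 230 and 244 genes within the pairs, 451 to 484 genes between them, and 492 to 725 genes between any 2 CTLD livers. Replicates 1 and 2 are called the first pair and replicates 3 and 4 the second pair below, and results that differ between them are given for both. The pairs were formed from these same data. Fits with 1 pair alone therefore understate the spread of DDC28 livers and do not test a difference between pairs. Depth split the same way: the first pair held 3334874 and 3449306 reads and the second 2860603 and 2791543. Pair and depth cannot be told apart.

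Of the 11089 genes tested with limma, 5969 (53.8%) were called, of which 3113 (28.1%) were higher and 2856 (25.8%) were lower in DDC28 livers at an adjusted p under 0.05, and the median log2 change over all genes was 0.01. These calls are referred to below as rose and fell, and changes are on the log2(normalized count + 1) scale with their standard errors. The p-values set each change against the spread between these livers, moderated over genes. For the day 7 and ligation contrasts that spread is taken over all 36 libraries. Non-overlapping values in the 4 and 4 livers were found for 2842 genes (25.6%) higher and 2643 genes (23.8%) lower in DDC28 livers. A change of more than 2-fold was called for 1362 genes (12.3%) that rose and 916 genes (8.26%) that fell. Of all calls 52.2% were rises. When each library was scaled to its total count instead, the median of all genes moved to 0.37 and 78.1% of the calls were rises, so small changes below are read against the authors' scaling. With replicates 1 and 2 as the only DDC28 livers, 2536 genes rose and 2488 fell, and with replicates 3 and 4 only, 2649 rose and 2678 fell.

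**Figure D1:**
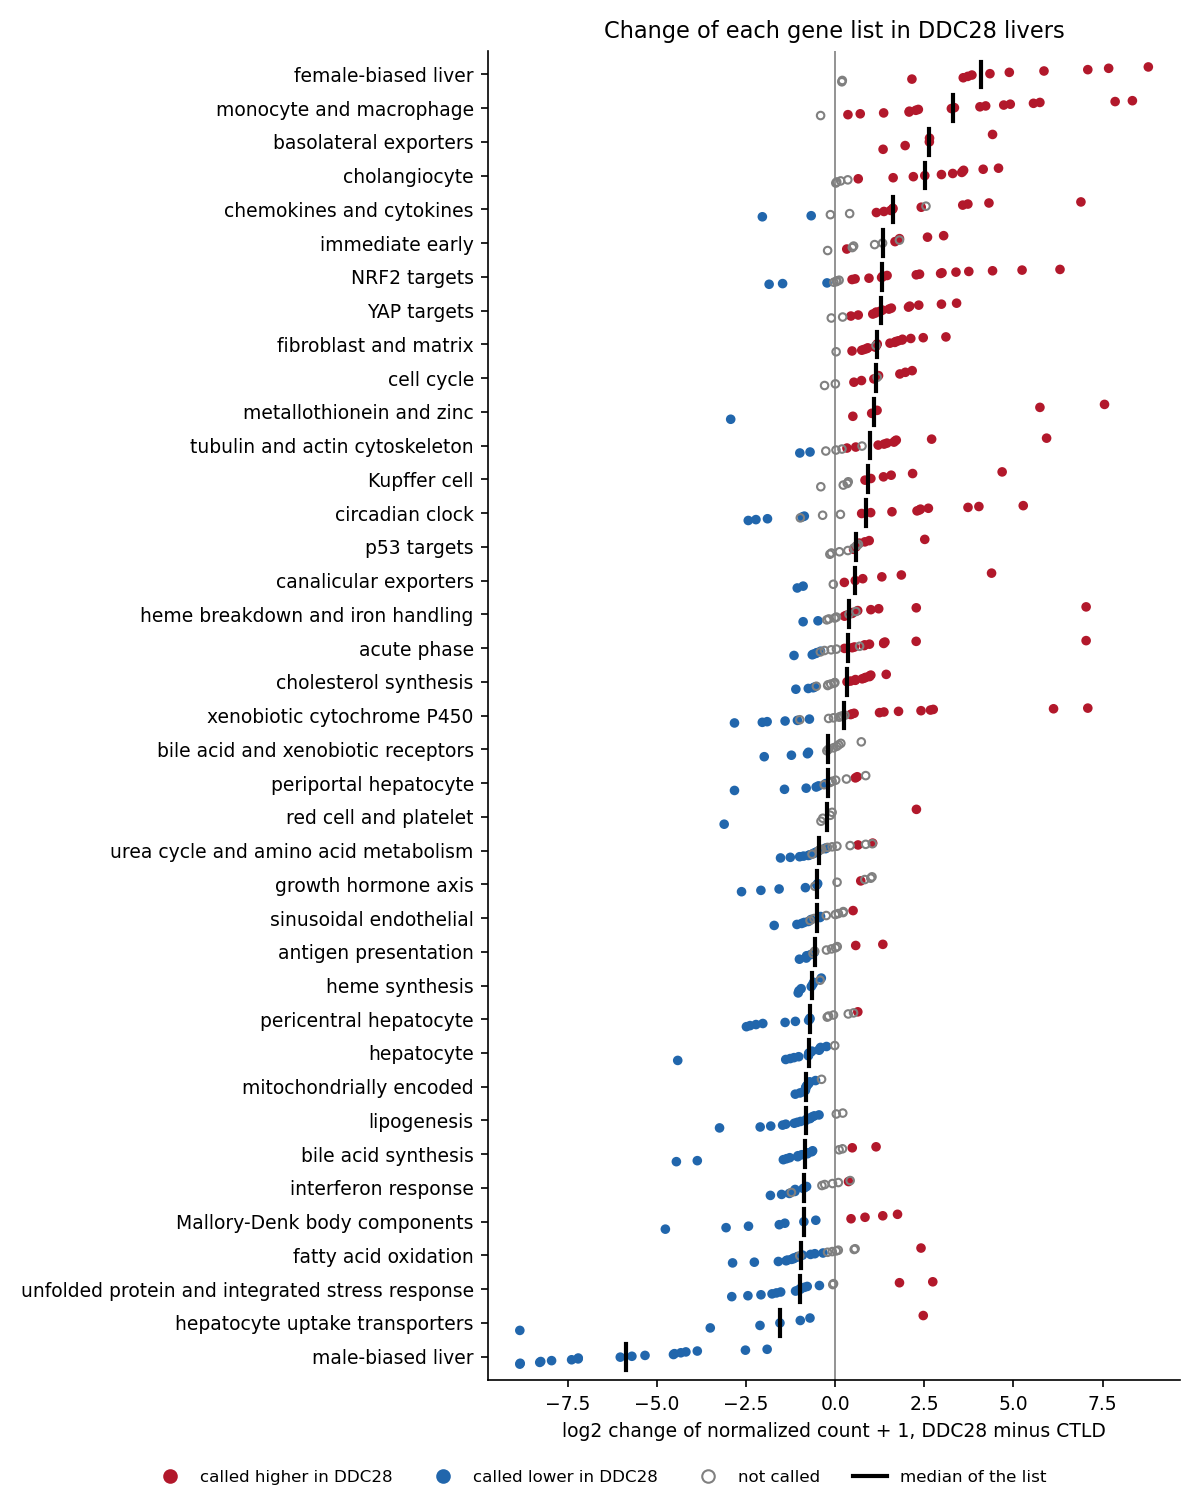
Each point is a gene of a named list, placed by its log2 change in DDC28 livers minus CTLD livers; red points rose, blue points fell, open points were not called, and the black bar is the median of the members that passed the filter. Lists with fewer than 5 such members are left out. Female-biased and macrophage genes lie farthest right and male-biased genes farthest left, with medians of 4.09, 3.30 and -5.87; the periportal and the red cell and platelet medians turn positive under both quantile normalization and total-count scaling, the hepatocyte median under the first and the receptor median under the second.

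Genes of heme synthesis were lower as a group, except the rate-limiting step. In this list 0 of the 8 members that passed the filter rose and 7 fell, with a median log2 change of -0.65. Total-count scaling left 3 of these falls. Alas1, the mitochondrial synthase that sets the rate of liver heme synthesis, had 566, 714, 791 and 682 normalized counts in DDC28 livers, against 1025, 427, 789 and 2051 in CTLD livers. The CTLD values of Alas1 spanned those of all DDC28 livers, and no change was called (log2 change -0.42 ± 0.47, adjusted p = 0.483). Urod, which decarboxylates uroporphyrinogen, had 109, 114, 106 and 105 normalized counts in DDC28 livers, against 229, 202, 248 and 217 in CTLD livers, without overlap (log2 change -1.04 ± 0.11, adjusted p = 1.15e-06). Fech, the ferrochelatase itself, had 437, 458, 500.1 and 480.4 normalized counts in DDC28 livers, against 601, 639.5, 639 and 579 in CTLD livers (log2 change -0.39 ± 0.09, adjusted p = 0.00125). Cpox (-0.63 ± 0.10) and Alad (-0.60 ± 0.10) fell as well, while the calls of Fech and Alad were lost under total-count scaling. Alas2, the synthase of red cell precursors, fell to 29.4, 42.0, 31.6 and 19.3 normalized counts in DDC28 livers, against 227, 283, 262 and 286 in CTLD livers (log2 change -3.12 ± 0.19, adjusted p = 7.82e-09). The globin genes beside it in the red cell list were not called, with Hba-a1 at 638, 606, 696 and 461 normalized counts in DDC28 livers, against 604, 1224, 1023 and 499.7 in CTLD livers.

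Genes that break down heme and handle its iron moved the other way. In this list 9 of the 17 members that passed the filter rose and 2 fell, with a median log2 change of 0.39. Hmox1, the inducible heme oxygenase, had 459, 367, 561 and 362 normalized counts in DDC28 livers, against 71.0, 77.7, 99.2 and 110.2 in CTLD livers. All DDC28 livers lay above all CTLD livers (log2 change 2.27 ± 0.17, adjusted p = 9.54e-08). Slc48a1, a carrier that moves heme out of lysosomes, had 463, 499.9, 388 and 397 normalized counts in DDC28 livers, against 186, 194, 194 and 171 in CTLD livers (log2 change 1.22 ± 0.10, adjusted p = 1.76e-07). The iron exporter ferroportin, Slc40a1, had 723, 667, 726 and 538 normalized counts in DDC28 livers, against 343, 379, 249 and 363 in CTLD livers, again without overlap (log2 change 0.999 ± 0.14, adjusted p = 2.79e-05). Lcn2, a siderophore-binding protein of inflamed epithelium and neutrophils, was among the 12 genes with the largest rises, at 665, 557, 480.2 and 518 normalized counts in DDC28 livers, against 1.01, 4.86, 3.92 and 4.36 in CTLD livers (log2 change 7.04 ± 0.30, adjusted p = 2.8e-09). Hamp, the iron hormone hepcidin that degrades ferroportin, was not called: it had 1685, 1723, 2800 and 2558 normalized counts in DDC28 livers, against 1519, 2516, 2073 and 2392 in CTLD livers (log2 change 0.03 ± 0.22, adjusted p = 0.911).

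The components of Mallory-Denk bodies split by kind. In this list 4 of the 11 members that passed the filter rose and 7 fell, with a median log2 change of -0.88, and no member was left uncalled. The members that rose were both keratins, the cargo adaptor Sqstm1 (p62) and the crosslinking enzyme Tgm2. Krt8 had 1362, 1446, 987 and 987 normalized counts in DDC28 livers, against 495, 444, 514 and 420.1 in CTLD livers, with replicates 1 and 2 above replicates 3 and 4 and all above CTLD (log2 change 1.33 ± 0.13, adjusted p = 1.05e-06). Its partner Krt18 had 824, 939, 537 and 529 normalized counts in DDC28 livers, against 229, 223, 214 and 156 in CTLD livers and the same order of pairs (log2 change 1.75 ± 0.21, adjusted p = 7.35e-05). Sqstm1 had 1618, 1612, 1501 and 1485 normalized counts in DDC28 livers, against 1029, 1222, 1204 and 1123 in CTLD livers, a change of less than 1.5-fold with no overlap (log2 change 0.44 ± 0.09, adjusted p = 0.000451). The members that fell were heat shock proteins and ubiquitin genes. Hspb1, a small heat shock protein, had 111, 94.7, 57.0 and 87.3 normalized counts in DDC28 livers, against 666, 766, 882 and 592 in CTLD livers (log2 change -3.06 ± 0.19, adjusted p = 2e-07). The chaperones Hspa8 (-1.41 ± 0.11) and Hsp90aa1 (-1.57 ± 0.13) fell too, and Hspa1b, singled out after its values were seen as the member with the largest fall, had 21.5, 18.5, 9.04 and 19.3 normalized counts in DDC28 livers, against 302, 437, 745 and 494 in CTLD livers.

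NRF2 target genes were mostly higher. In this list 16 of the 23 members that passed the filter rose and 3 fell, with a median log2 change of 1.32. Srxn1, which repairs oxidized peroxiredoxins, had 801, 834, 707 and 748 normalized counts in DDC28 livers, against 155, 133, 168 and 142 in CTLD livers (log2 change 2.36 ± 0.10, adjusted p = 6.94e-11). The glutathione transferase Gstm3 had 2359, 2339, 2037 and 1990 normalized counts in DDC28 livers, against 135, 223, 146 and 153 in CTLD livers, a change of 3.75 ± 0.14 with no overlap. Nqo1, a quinone reductase, had 142, 122, 169 and 122 normalized counts in DDC28 livers, against 11.2, 19.4, 7.83 and 13.1 in CTLD livers (log2 change 3.39 ± 0.23, adjusted p = 1.29e-08). Gsta1, a second glutathione transferase among the largest rises, had 989, 1103, 957 and 942 normalized counts in DDC28 livers, against 29.4, 37.2, 0 and 20.7 in CTLD livers, with the 0 of CTLD replicate 3 far from the other 3 livers and a large error (log2 change 6.30 ± 1.21, adjusted p = 0.00497). Gclc, the catalytic subunit of glutathione synthesis, stayed uncalled at 1912, 1972, 1975 and 2249 normalized counts in DDC28 livers, against 2026, 2055, 1943 and 1873 in CTLD livers (log2 change 0.04 ± 0.08, adjusted p = 0.74). Gstp1, the most abundant member named here in CTLD livers, went against the list with 1510, 1693, 1610 and 1527 normalized counts in DDC28 livers, against 4829, 6301, 6543 and 5424 in CTLD livers (log2 change -1.85 ± 0.10, adjusted p = 1.21e-09). Me1 fell (-1.48 ± 0.17), and so did Prdx1 (-0.23 ± 0.09), with overlapping groups and a turned direction under total-count scaling (0.13) and quantile normalization (0.55). The Prdx1 call was also lost without any 1 of the 8 livers other than CTLD replicate 1 (adjusted p = 0.061 to 0.121).

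Metallothioneins, small proteins that bind zinc and copper, were among the strongest risers. Mt2 had 1724, 2025, 2005 and 3446 normalized counts in DDC28 livers, against 9.12, 16.2, 10.4 and 8.73 in CTLD livers (log2 change 7.55 ± 0.24, adjusted p = 3.9e-09). Mt1 had 2335, 2106, 2238 and 2908 normalized counts in DDC28 livers, against 32.4, 53.4, 49.6 and 41.5 in CTLD livers (log2 change 5.74 ± 0.15, adjusted p = 4.19e-12). In both genes every DDC28 liver was above every CTLD liver by well over 10-fold. In the whole metallothionein and zinc list 5 of 6 rose and 1 fell (median 1.097), and the member that fell was Slc30a10, a manganese exporter, with 31.5, 32.8, 28.9 and 34.0 normalized counts in DDC28 livers, against 247, 249, 243 and 258 in CTLD livers (log2 change -2.93 ± 0.12, adjusted p = 5.13e-11). The intestinal-type zinc importer Slc39a4 had 561, 646, 444 and 524 normalized counts in DDC28 livers, against 225, 256, 292 and 292 in CTLD livers (log2 change 1.02 ± 0.12, adjusted p = 5.11e-06). The promoters of Mt2 and Mt1 are shown because these neighbouring genes of chromosome 8 rose together. The sequences are RefSeq windows of build GRCm38.p6, from 250 bases before to 50 bases after the start of the gene, and capitals mark the metal response element core TGCNCNC on either strand, read as GNGNGCA where it lies on the minus strand.

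Mt2 (chr8:94172368-94172667, plus strand): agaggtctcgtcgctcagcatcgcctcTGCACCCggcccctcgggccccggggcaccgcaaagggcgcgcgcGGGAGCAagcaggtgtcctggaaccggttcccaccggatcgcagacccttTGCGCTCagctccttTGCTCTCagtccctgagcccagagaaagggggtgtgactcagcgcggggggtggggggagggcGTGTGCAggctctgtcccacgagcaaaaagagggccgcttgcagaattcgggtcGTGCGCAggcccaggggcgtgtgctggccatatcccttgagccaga
Mt1 (chr8:94178839-94179138, plus strand): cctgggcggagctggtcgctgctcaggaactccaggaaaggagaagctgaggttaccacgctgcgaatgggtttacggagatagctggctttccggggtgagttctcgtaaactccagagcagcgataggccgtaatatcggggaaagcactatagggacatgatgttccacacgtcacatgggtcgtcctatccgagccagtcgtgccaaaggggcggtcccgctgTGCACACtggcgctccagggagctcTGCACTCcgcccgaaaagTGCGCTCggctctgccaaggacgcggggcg

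The Mt2 window held 6 matches, 3 on each strand, and 0.225% of 32851 mouse windows of the same length held as many. The Mt1 window held 3 matches, all on the plus strand, as did or exceeded 7.1% of windows. At least 1 match is common, in 51.0% of windows, and all 4 list members with a window in the table had one, Slc30a10 included. A match is a run of letters and no measurement of binding.

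Bile duct genes rose in DDC28 livers. Here and for every cell type below, more cells of a type and more RNA per cell cannot be told apart in whole-liver RNA. Of the 20 cholangiocyte markers, 5 did not pass the filter, and 11 of the 15 members that passed the filter rose and 0 fell, with a median log2 change of 2.51. Their summed level was 1999.5 to 3645 normalized counts in DDC28 livers and 711 to 802 in CTLD livers. Epcam, an adhesion molecule of biliary epithelium, had 146, 76.9, 65.1 and 83.6 normalized counts in DDC28 livers, against 11.2, 4.86, 3.92 and 8.73 in CTLD livers (log2 change 3.55 ± 0.32, adjusted p = 4.24e-07). Krt19, the keratin of duct cells, had 50.2, 15.7, 15.4 and 25.7 normalized counts in DDC28 livers, against 5.07, 3.24, 5.22 and 4.36 in CTLD livers, lower and more scattered (log2 change 2.19 ± 0.38, adjusted p = 0.000184). Spp1, the secreted osteopontin, had 1714, 1253, 888 and 1247 normalized counts in DDC28 livers, against 177, 134, 157 and 162 in CTLD livers (log2 change 2.98 ± 0.17, adjusted p = 6.43e-08). Prom1, a surface protein of ductal progenitors, had 105, 102, 63.3 and 54.2 normalized counts in DDC28 livers, against 7.10, 3.24, 2.61 and 2.18 in CTLD livers, with the first pair of DDC28 livers above the second (log2 change 4.15 ± 0.33, adjusted p = 6.34e-08). Tspan8, a tetraspanin, rose by 3.60 ± 0.32. Sox9, a factor of biliary and progenitor cells, changed least of those named here, with 414, 272, 236 and 324 normalized counts in DDC28 livers, against 223, 215, 226 and 132 in CTLD livers (log2 change 0.65 ± 0.21, adjusted p = 0.0242). That call was lost with all 36 libraries in the fit and without DDC28 replicate 4 (adjusted p = 0.0621, and 0.00221 to 0.109 over all alternatives). Krt7 was too low for the filter, at 22.9, 12.8, 9.04 and 17.4 normalized counts in DDC28 livers, against 1.01, 6.48, 1.305 and 3.27 in CTLD livers.

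Genes switched on by YAP, the effector of the Hippo pathway, and genes of the cytoskeleton rose beside them. Of the YAP targets 14 of 16 rose and 0 fell (median 1.296), and 9 of them rose with replicates 3 and 4 as the only DDC28 livers. Myof, a membrane repair protein, had 134, 109.7, 72.3 and 109 normalized counts in DDC28 livers, against 11.2, 12.9, 6.52 and 6.55 in CTLD livers (log2 change 3.40 ± 0.25, adjusted p = 3.31e-08). Anxa3 rose by 2.09 ± 0.20 and the receptor tyrosine kinase Axl by 1.57 ± 0.16. Of the tubulin and actin genes 10 of 16 rose and 2 fell (median 0.98). Tubb2b, a beta-tubulin best known from neurons, had 130.5, 125, 75.1 and 147 normalized counts in DDC28 livers, against 0, 3.24, 0 and 2.18 in CTLD livers (log2 change 5.93 ± 0.46, adjusted p = 2.83e-07), while Tuba4a fell (-0.99 ± 0.12). Sprr1a, a cornified envelope protein of stressed epithelium, had 345, 244, 76.9 and 129 normalized counts in DDC28 livers, against 0, 0, 1.305 and 0 in CTLD livers. Only 1 read of Sprr1a was seen over the CTLD livers, and the ratio was 691 with a counting interval of 124 to 27300.

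**Figure D2:**
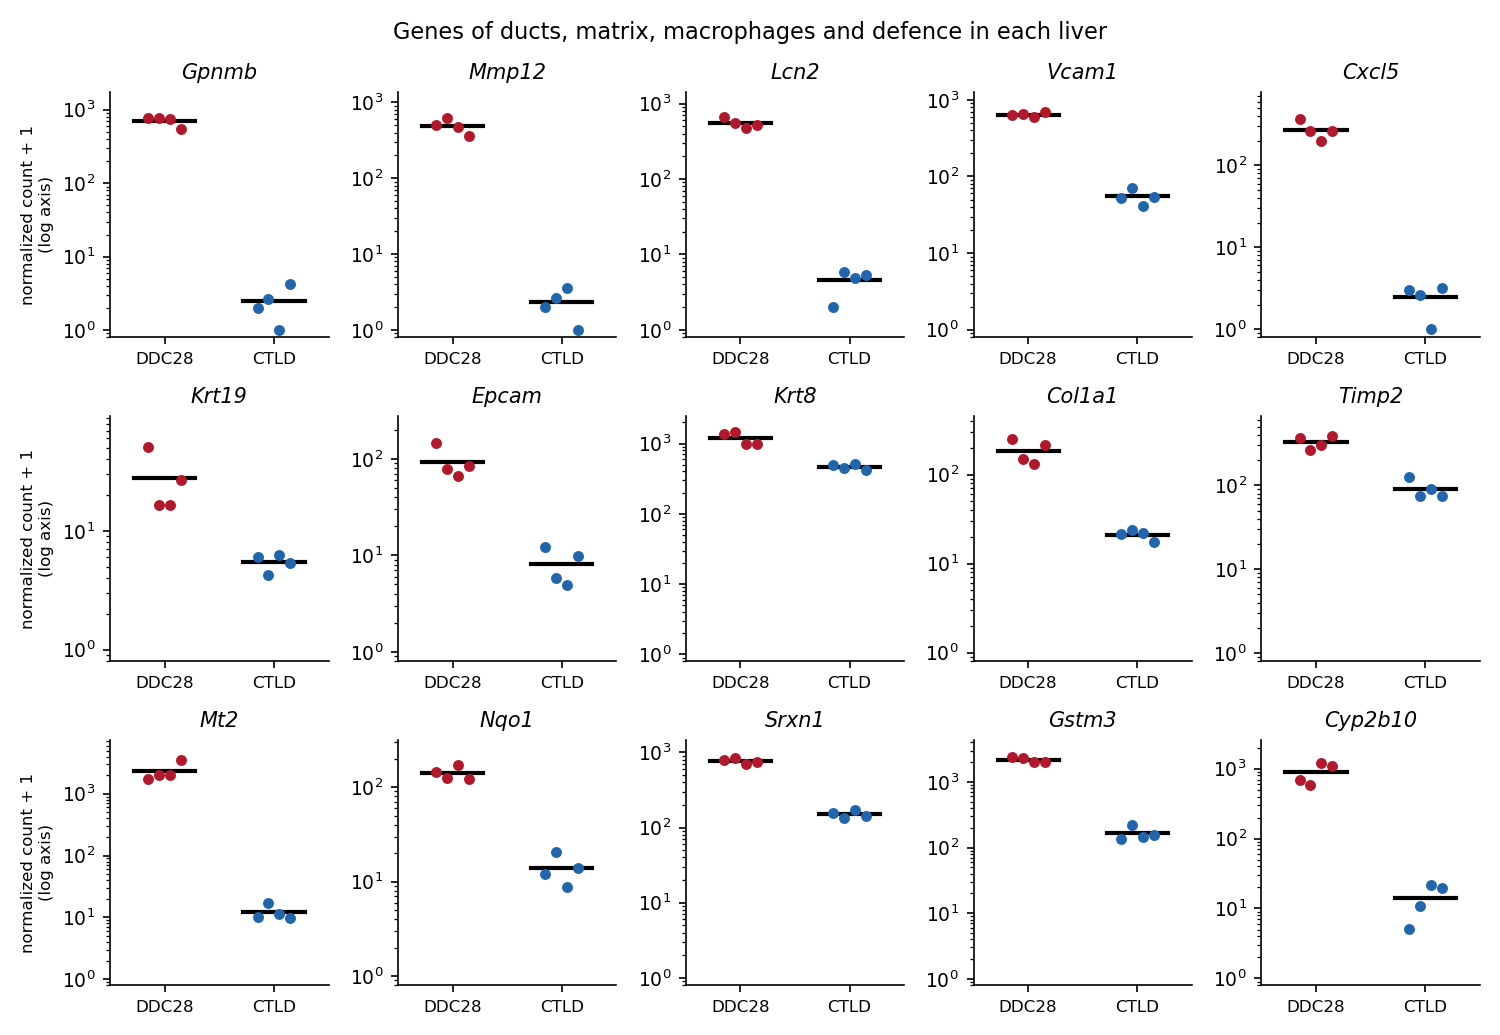
Points are the normalized counts (plus 1, log axis) of each of 4 DDC28 livers (red, left) and 4 CTLD livers (blue, right), and black lines are group means. In all 15 genes shown every DDC28 liver lies above every CTLD liver, with the widest gaps in Gpnmb, Mmp12 and Mt2.

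Extracellular matrix genes rose without any fall. Of the 32 members of the fibroblast and matrix list, 20 passed the filter, and 18 of the 20 members that passed the filter rose and 0 fell, with a median log2 change of 1.17. Col1a1, the main chain of type I collagen, had 248, 147, 132 and 212 normalized counts in DDC28 livers, against 20.3, 22.7, 20.9 and 16.4 in CTLD livers (log2 change 3.10 ± 0.20, adjusted p = 6.3e-09). Col3a1 had 359, 177, 180 and 286 normalized counts in DDC28 livers, against 96.3, 68.0, 67.8 and 64.4 in CTLD livers, with the lowest DDC28 liver still above the highest CTLD liver (log2 change 1.70 ± 0.23, adjusted p = 0.0001). Timp2, an inhibitor of matrix proteases, had 365, 264, 305 and 387 normalized counts in DDC28 livers, against 124, 74.5, 88.7 and 74.2 in CTLD livers (log2 change 1.87 ± 0.17, adjusted p = 6.24e-07). The membrane protease Mmp14 and the proteoglycan Bgn rose by 1.53 ± 0.10 and 1.17 ± 0.13. Timp1 did not enter the fit. It had 36.6, 21.4, 9.04 and 14.7 normalized counts in DDC28 livers, against 0, 0, 0 and 0 in CTLD livers, at least 23.5-fold higher against a floor of 3 reads over the CTLD group. Acta2, the actin of myofibroblasts and of vessel walls, had 40.1, 14.2, 19.0 and 16.5 normalized counts in DDC28 livers, against 1.01, 16.2, 19.6 and 12 in CTLD livers, and the groups overlapped (log2 change 1.14 ± 0.72, adjusted p = 0.218). The smooth muscle and myofibroblast markers Des and Tagln did not pass the filter.

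Macrophage genes had one of the highest medians of all lists. Of 19 monocyte and macrophage markers 17 of the 18 members that passed the filter rose and 0 fell, with a median log2 change of 3.30. Their summed level was 6767 to 8137 normalized counts in DDC28 livers and 1597 to 2164 in CTLD livers. Gpnmb, a glycoprotein of lipid-laden and phagocytic macrophages, had 769.9, 780.5, 744 and 546 normalized counts in DDC28 livers, against 1.01, 1.62, 0 and 3.27 in CTLD livers (log2 change 8.34 ± 0.37, adjusted p = 2.88e-08). Mmp12, the macrophage elastase, had 508, 621, 468 and 365 normalized counts in DDC28 livers, against 1.01, 1.62, 2.61 and 0 in CTLD livers (log2 change 7.85 ± 0.34, adjusted p = 2.03e-09). The 4 DDC28 livers differed by less than 2-fold in either gene, and CTLD livers held next to no reads. Ctss, a lysosomal protease of antigen-presenting cells, had 1355, 1294, 1475 and 1362 normalized counts in DDC28 livers, against 273, 278, 284 and 307 in CTLD livers, the tightest of these contrasts (log2 change 2.26 ± 0.08, adjusted p = 1.63e-11). Lgals3, galectin 3, had 295, 330.4, 354 and 253 normalized counts in DDC28 livers, against 11.2, 16.2, 14.3 and 21.8 in CTLD livers (log2 change 4.22 ± 0.18, adjusted p = 9.8e-11), and the lysosomal protease Ctsd rose by 1.36 ± 0.08. Trem2, a lipid-sensing receptor, had 54.5, 44.1, 43.4 and 33.1 normalized counts in DDC28 livers, against 1.01, 0, 1.305 and 0 in CTLD livers, a ratio of 73.1 with a counting interval of 20.0 to 607 over 2 CTLD reads.

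Markers of Kupffer cells, the resident macrophages, were less uniform. Among them 6 of 10 rose and 0 fell (median 0.92). Without DDC28 replicate 1, and with replicates 3 and 4 as the only DDC28 livers, 6 rose and 1 fell. Marco, a scavenger receptor, had 358, 533, 364 and 242 normalized counts in DDC28 livers, against 11.2, 16.2, 9.13 and 17.5 in CTLD livers (log2 change 4.68 ± 0.25, adjusted p = 1.28e-08). Cd5l, a secreted protein of tissue macrophages, had 895, 1018, 739 and 659.5 normalized counts in DDC28 livers, against 161, 196, 169.6 and 199 in CTLD livers (log2 change 2.17 ± 0.13, adjusted p = 4.16e-09). Vsig4 (1.35 ± 0.11) and Clec1b (1.57 ± 0.18) rose less. Clec4f, the lectin that defines Kupffer cells in the mouse, was not called, with 129.8, 113, 84.1 and 66.1 normalized counts in DDC28 livers, against 105, 131, 121 and 152 in CTLD livers (log2 change -0.41 ± 0.19, adjusted p = 0.0887). The first pair of DDC28 livers lay within the CTLD range of Clec4f and the second pair below every CTLD liver. Timd4 and Folr2 were also uncalled.

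Few markers of other leukocytes were abundant enough to test. Of 12 neutrophil markers 2 passed the filter and both rose. S100a8 had 202, 203, 248 and 253 normalized counts in DDC28 livers, against 3.04, 9.71, 2.61 and 8.73 in CTLD livers (log2 change 5.18 ± 0.34, adjusted p = 1.87e-07), and its partner S100a9 rose by 4.78 ± 0.28. The listed neutrophil genes Ly6g and Mpo had 0 reads in all 8 livers. Of 14 T and NK cell markers 12 did not pass the filter, and Ccl5 was not called. The receptor Il7r rose, with 38.7, 51.3, 36.2 and 28.5 normalized counts in DDC28 livers, against 4.05, 1.62, 0 and 2.18 in CTLD livers (log2 change 3.93 ± 0.45, adjusted p = 3.2e-06). All 14 markers summed to 55.1 to 72.6 normalized counts in DDC28 livers and 31.3 to 44.7 in CTLD livers, so the rise of Il7r does not stand for the list. The plasma cell genes Jchain and Igkc were the 2 of 8 B cell markers that passed, and rose by 1.92 ± 0.37 and 1.44 ± 0.36. S100a8, Il7r and Jchain were below 10 in every CTLD liver. They passed the filter only through DDC28 livers, so their direction was largely set by the filter. Pf4, a platelet chemokine, had 63.8, 51.3, 62.4 and 47.8 normalized counts in DDC28 livers, against 16.2, 11.3, 15.7 and 4.36 in CTLD livers (log2 change 2.28 ± 0.32, adjusted p = 4e-05).

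Chemokines and adhesion molecules rose in most cases. Of 22 listed, 15 passed the filter, and 10 of the 15 members that passed the filter rose and 2 fell, with a median log2 change of 1.61. Vcam1, which holds leukocytes to endothelium, had 641, 651, 591 and 686 normalized counts in DDC28 livers, against 51.7, 69.6, 40.5 and 53.5 in CTLD livers (log2 change 3.58 ± 0.14, adjusted p = 2.65e-11). Tnfrsf12a, the receptor of TWEAK, had 119, 110.4, 106 and 111 normalized counts in DDC28 livers, against 7.10, 6.48, 9.13 and 7.64 in CTLD livers (log2 change 3.72 ± 0.19, adjusted p = 4.19e-10). Cxcl5, a neutrophil attractant, had 364, 263, 195 and 264 normalized counts in DDC28 livers, against 2.03, 1.62, 0 and 2.18 in CTLD livers (log2 change 6.89 ± 0.34, adjusted p = 2.13e-09), and Cxcl16 rose by 1.62 ± 0.19. The values of these genes did not overlap between the groups.

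Interferon-inducible genes went the other way. In this list 1 of the 16 members that passed the filter rose and 9 fell, with a median log2 change of -0.88. Ifit1, an antiviral protein that binds RNA, had 16.5, 21.4, 19.0 and 8.27 normalized counts in DDC28 livers, against 87.2, 63.1, 40.5 and 46.9 in CTLD livers (log2 change -1.82 ± 0.30, adjusted p = 0.000136). Irgm1 (-1.29 ± 0.15) and Iigp1 (-1.13 ± 0.17), GTPases that act against intracellular parasites, fell as well. Total-count scaling left 6 falls in the list and a median of -0.52. Of the antigen presentation genes 2 of 14 rose and 6 fell (median -0.58), with 2 falls left under total-count scaling. B2m, the light chain of class I molecules, had 3994, 3584, 4855 and 4546 normalized counts in DDC28 livers, against 7043, 9010, 9596 and 8412 in CTLD livers (log2 change -1.005 ± 0.12, adjusted p = 3.5e-06), a call lost under quantile normalization, while H2-DMb1 of the class II pathway rose (1.33 ± 0.22). H2-K1 fell by 0.59 under the authors' scaling, with a turned sign (0.09) under quantile normalization. Tap1, a peptide transporter, fell by 0.80, and lost its call under total-count scaling.

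Among markers of sinusoidal endothelium, the lining of the liver's capillaries, 1 of 16 rose and 8 fell (median -0.51), and total-count scaling left 2 falls. Dnase1l3, a secreted nuclease, had 48.0, 39.2, 49.7 and 44.1 normalized counts in DDC28 livers, against 147, 142, 154 and 157 in CTLD livers (log2 change -1.71 ± 0.13, adjusted p = 4.29e-08). Clec4g had 105, 93.3, 58.8 and 69.8 normalized counts in DDC28 livers, against 162, 160.3, 179 and 176 in CTLD livers (log2 change -1.07 ± 0.16, adjusted p = 4.93e-05). The scavenger receptor Stab2 (-0.68 ± 0.14) and Oit3 (-0.76 ± 0.16) lost their calls under that scaling. The summed level of the list was 1717 to 2007 normalized counts in DDC28 livers and 2136 to 2441 in CTLD livers.

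Hepatocyte genes were lower under the authors' scaling. In this list 0 of the 17 members that passed the filter rose and 16 fell, with a median log2 change of -0.74, but quantile normalization turned the median to 0.09 with 8 rises and 7 falls. Ttr, the transthyretin carrier, had 5734, 5381, 6080 and 6250 normalized counts in DDC28 livers, against 13700, 18200, 15460 and 14310 in CTLD livers (log2 change -1.39 ± 0.10, adjusted p = 2.79e-08). Apoa2 fell by 1.26, and the transcription factor Cebpa had 358, 324, 381 and 318 normalized counts in DDC28 livers, against 636, 620.1, 862 and 712 in CTLD livers (log2 change -1.02 ± 0.11, adjusted p = 1.87e-06). Alb had 16140, 15650, 19250 and 19140 normalized counts in DDC28 livers, against 24460, 32990, 29130 and 26630 in CTLD livers, with no overlap (log2 change -0.69 ± 0.11, adjusted p = 9.62e-05), and a change of 0.03 under quantile normalization. Fabp1, the fatty acid binding protein of liver, singled out after its values were seen, stood apart with 729.8, 816, 248 and 321 normalized counts in DDC28 livers, against 8980, 11730, 10320 and 9191 in CTLD livers. The summed hepatocyte markers were 95001 to 107844 normalized counts in DDC28 livers and 152162 to 192805 in CTLD livers. The part of a changed cell mixture in the lower hepatocyte genes was not tested. Mitochondrially encoded transcripts took 5.47 to 6.72% of reads in DDC28 livers and 7.15 to 8.67% in CTLD livers, and 0 of 13 rose and 12 fell (median -0.82). Under quantile normalization 5 of them rose and 2 fell.

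Genes of hepatocytes around the central vein were mostly lower. Of the pericentral genes 1 of 15 rose and 9 fell (median -0.71). Glul, the glutamine synthetase of hepatocytes next to the central vein, had 489.6, 372, 395 and 549 normalized counts in DDC28 livers, against 2131, 2532, 2988 and 2471 in CTLD livers (log2 change -2.49 ± 0.13, adjusted p = 2.91e-09). Slc1a2, a glutamate carrier of the same cells, had 78.9, 78.3, 80.5 and 113 normalized counts in DDC28 livers, against 396, 444, 548 and 457 in CTLD livers (log2 change -2.39 ± 0.14, adjusted p = 1.81e-09), and the R-spondin receptor Lgr5 fell by 2.22. Cyp2e1 had 1401, 1297, 2215 and 2283 normalized counts in DDC28 livers, against 3239, 5051, 6409 and 4336 in CTLD livers, with the first pair of DDC28 livers below the second (log2 change -1.41 ± 0.27, adjusted p = 0.00347). Of the periportal genes 2 of 14 rose and 6 fell (median -0.21), but 3 rose and 3 fell under total-count scaling (median 0.15) and 6 rose and 4 fell under quantile normalization (median 0.29). Cyp2f2, a periportal cytochrome, had 554, 835, 729 and 466 normalized counts in DDC28 livers, against 3875, 4927, 4824 and 4350 in CTLD livers (log2 change -2.83 ± 0.17, adjusted p = 1.5e-07), while the lipid droplet enzyme Hsd17b13 rose (0.56 ± 0.09).

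The acute-phase genes, which inflamed liver secretes, rose more often than they fell. In this list 11 of the 22 members that passed the filter rose and 6 fell, with a median log2 change of 0.37. Total-count scaling gave 13 rises and 3 falls, quantile normalization 15 and 3, and the fit with all 36 libraries 7 and 6. The 6 falls are a share near that over all genes. Lbp, which binds bacterial lipopolysaccharide, had 581, 533, 554 and 561 normalized counts in DDC28 livers, against 207, 207, 231 and 220.4 in CTLD livers (log2 change 1.36 ± 0.09, adjusted p = 7.02e-09). Apcs, serum amyloid P, rose by 1.39 ± 0.10. Saa1 had 969, 1067, 631 and 904 normalized counts in DDC28 livers, against 294, 614, 817 and 601 in CTLD livers and was not called (log2 change 0.68 ± 0.34, adjusted p = 0.132). Serpina1a, an antitrypsin, fell to 3099, 3052, 3590 and 3409 normalized counts in DDC28 livers, against 6457, 8513, 7667 and 6791 in CTLD livers (log2 change -1.16 ± 0.10, adjusted p = 2.02e-07). Genes of the unfolded protein and integrated stress responses fell as a group: 2 of 17 rose and 13 fell (median -0.98). Hspa5, the chaperone BiP of the endoplasmic reticulum, had 2229, 2427, 1867 and 2373 normalized counts in DDC28 livers, against 5290, 7250, 8898 and 6835 in CTLD livers (log2 change -1.65 ± 0.14, adjusted p = 4.73e-07). Pdia4 (-1.04 ± 0.10) and Pdia3 (-0.98 ± 0.10), which form disulfide bonds, fell with it. The pseudokinase Trib3 rose against the list, with 43.0, 54.8, 45.2 and 51.4 normalized counts in DDC28 livers, against 6.08, 8.10, 5.22 and 6.55 in CTLD livers (log2 change 2.74 ± 0.23, adjusted p = 1.7e-07).

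Enzymes of bile acid synthesis were mostly lower, while the first step of the classical route was not called. In this list 2 of the 16 members that passed the filter rose and 12 fell, with a median log2 change of -0.86. Cyp7a1, the rate-limiting hydroxylase of that route, had 738, 746, 254 and 158 normalized counts in DDC28 livers, against 321, 376, 378 and 359 in CTLD livers. The first pair of DDC28 livers lay above and the second below every CTLD liver (log2 change 0.11 ± 0.55, adjusted p = 0.885). Cyp8b1, which makes cholic acid, had 55.2, 39.9, 26.2 and 65.2 normalized counts in DDC28 livers, against 957, 1064, 1035 and 912 in CTLD livers (log2 change -4.46 ± 0.24, adjusted p = 4.48e-07). Cyp7b1 of the alternative route had 62.4, 82.6, 66.9 and 62.5 normalized counts in DDC28 livers, against 704, 1172, 1202 and 1047 in CTLD livers (log2 change -3.87 ± 0.16, adjusted p = 4.67e-10). For Cyp8b1 and Cyp7b1 the highest DDC28 liver was several-fold below the lowest CTLD liver. Hsd3b7 (-1.36 ± 0.10), Akr1c6 (-1.46 ± 0.10) and the side chain thiolase Scp2 (-1.28 ± 0.09) fell less.

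Carriers that take bile acids and organic ions up from blood fell. Among the 7 that passed the filter 1 of 7 rose and 6 fell (median -1.55). Slco1a1, an organic anion carrier, had 0, 9.26, 1.81 and 5.51 normalized counts in DDC28 livers, against 1773, 1774, 1588 and 1696 in CTLD livers (log2 change -8.85 ± 0.72, adjusted p = 7.39e-05). Slc10a1, the sodium-dependent bile acid carrier NTCP, had 315, 329, 599.6 and 589 normalized counts in DDC28 livers, against 1156, 1277, 1469 and 1258 in CTLD livers, the first pair below the second (log2 change -1.55 ± 0.23, adjusted p = 0.000634). The organic anion carrier Slco1b2 fell by 0.98, a call lost under quantile normalization. Exporters were grouped by membrane. On the bile side 6 of 9 rose and 2 fell (median 0.56), the falls at a share near that over all genes (25.8%). Abcb11, the bile salt export pump, had 459, 558, 300.2 and 331 normalized counts in DDC28 livers, against 753, 844, 902 and 856 in CTLD livers (log2 change -1.07 ± 0.17, adjusted p = 0.000368). Abcb1a, the drug pump P-glycoprotein, had 161, 221, 215 and 207 normalized counts in DDC28 livers, against 6.08, 14.6, 9.13 and 6.55 in CTLD livers (log2 change 4.38 ± 0.23, adjusted p = 9.4e-10). The sterol pumps Abcg5 (1.85 ± 0.23) and Abcg8 (1.31 ± 0.13) rose, and Abcg2 fell (-0.90 ± 0.14).

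On the blood side 5 of 5 rose and 0 fell (median 2.64). Abcc4, a pump for bile acids and conjugates, had 258, 276, 193 and 195 normalized counts in DDC28 livers, against 14.2, 8.10, 7.83 and 9.82 in CTLD livers (log2 change 4.41 ± 0.20, adjusted p = 1.52e-10). Abcc3 had 295, 288, 318 and 319 normalized counts in DDC28 livers, against 114, 115, 112 and 139 in CTLD livers (log2 change 1.34 ± 0.11, adjusted p = 6.7e-08). Slc51b, the beta subunit of the organic solute transporter, had 39.4, 42.7, 41.6 and 38.6 normalized counts in DDC28 livers, against 3.04, 4.86, 11.7 and 5.46 in CTLD livers (log2 change 2.65 ± 0.32, adjusted p = 6.12e-06), whereas its partner Slc51a had 0 reads in all 8 livers. None of these values overlapped between groups. Among bile acid and xenobiotic receptors 0 of 11 rose and 4 fell (median -0.19), a median of 0.17 under total-count scaling. Nr1h4, which encodes FXR, had 214, 177, 197 and 182 normalized counts in DDC28 livers, against 346, 389, 305 and 291 in CTLD livers (log2 change -0.78 ± 0.11, adjusted p = 3.21e-05). Nr0b2, the FXR target SHP that represses bile acid synthesis, had 24.4, 34.2, 23.5 and 26.6 normalized counts in DDC28 livers, against 138, 89.0, 114 and 105 in CTLD livers (log2 change -1.99 ± 0.18, adjusted p = 2.28e-07). Ppara, the fatty acid receptor, fell by 1.23, and Hnf4a, a central transcription factor of hepatocytes, fell too (-0.75 ± 0.12).

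**Figure D3:**
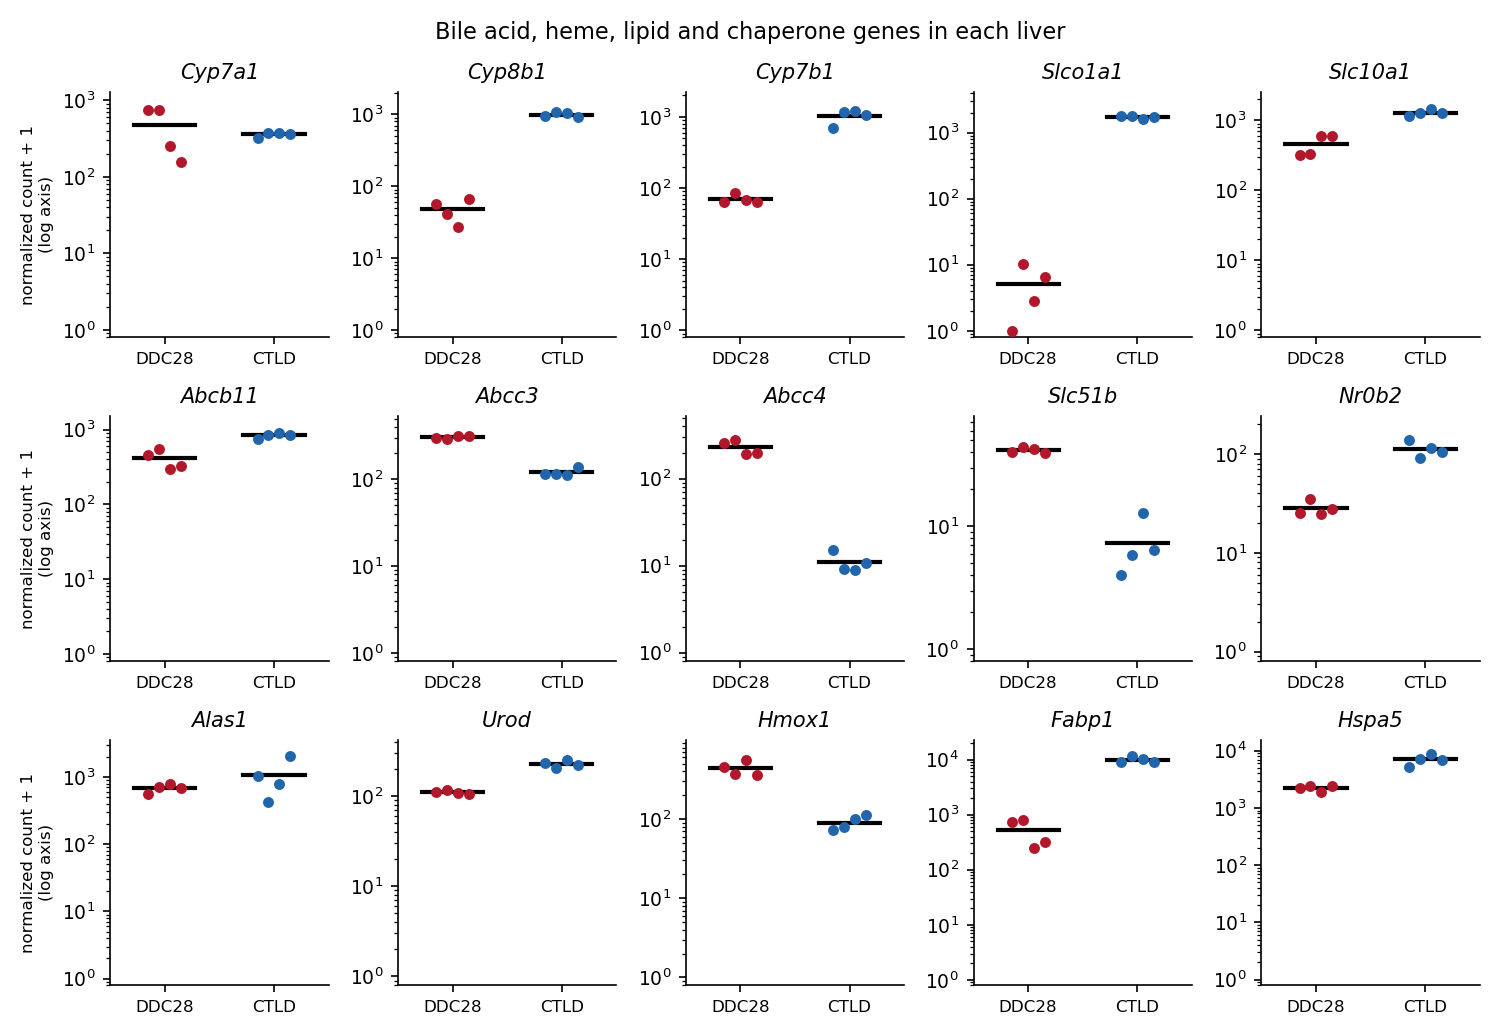
Points are the normalized counts (plus 1, log axis) of each of 4 DDC28 livers (red, left) and 4 CTLD livers (blue, right), and black lines are group means. Cyp7a1 splits the DDC28 livers by pair and overlaps, as does Alas1 for its CTLD spread, and the other 13 genes do not overlap.

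Cytochromes P450 that metabolize drugs changed in both directions, with falls at a share near that over all genes. In this list 11 of the 24 members that passed the filter rose and 6 fell, with a median log2 change of 0.24. Cyp2b10, the classic target of the receptor CAR, had 688, 589.6, 1222 and 1099 normalized counts in DDC28 livers, against 4.05, 9.71, 20.9 and 18.6 in CTLD livers (log2 change 6.12 ± 0.52, adjusted p = 7.57e-05). Replicates 3 and 4 lay above replicates 1 and 2, and all far above CTLD. Cyp2b9 had 0 reads in CTLD livers and 149.8, 96.8, 157 and 144 normalized counts in DDC28 livers, at least 148-fold higher against 3 reads over the group. Cyp3a11, a target of the receptor PXR, had 6399, 7474, 9345 and 9196 normalized counts in DDC28 livers, against 4827, 5477, 7679 and 6118 in CTLD livers, with overlap (log2 change 0.43 ± 0.15, adjusted p = 0.031), and lost its call with all 36 libraries in the fit (adjusted p = 0.22) and without CTLD replicate 1, 2 or 4 or DDC28 replicate 3 or 4 (adjusted p = 0.0503 to 0.089). With replicates 1 and 2 as the only DDC28 livers its change was 0.22 (adjusted p = 0.302, the highest over all alternatives). Cyp2d9 (-1.91 ± 0.12) and Cyp2d10 (-1.06 ± 0.09) fell.

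The farthest change of all lists was in genes that differ between male and female mouse livers. Growth hormone, secreted in pulses in male mice, sets this difference through STAT5. Of the male-biased genes 0 of 18 rose and 18 fell (median -5.87), and of the female-biased ones 12 of 18 passed the filter and 10 of 12 rose and 0 fell (median 4.09). The female-biased Cyp2b9, Sult2a2, Sult1e1 and Cyp2a4 were below 10 in every CTLD liver. The male-biased Hsd3b5 and Slco1a1 were below 10 in every DDC28 liver. The direction of these genes was largely set by the filter. The summed male-biased genes were 2539.9 to 3219.5 normalized counts in DDC28 livers and 93069 to 135505 in CTLD livers. Cyp4a12a, a fatty acid hydroxylase of male liver, had 10.04, 12.8, 11.8 and 12.9 normalized counts in DDC28 livers, against 2630, 3471, 3860 and 2921 in CTLD livers (log2 change -7.96 ± 0.13, adjusted p = 9.73e-16). Hsd3b5, a steroid reductase, had 0.717, 1.42, 0 and 0.918 normalized counts in DDC28 livers, against 556, 512, 472 and 565 in CTLD livers (log2 change -8.29 ± 0.25, adjusted p = 2.06e-12). The antitrypsin Serpina1e had 213, 209, 233 and 271 normalized counts in DDC28 livers, against 13310, 18100, 15170 and 14340 in CTLD livers (log2 change -6.03 ± 0.11, adjusted p = 2.41e-15). In none of them did a DDC28 liver come near a CTLD liver. Elovl3, which elongates very long fatty acids, had 0.717, 11.4, 4.52 and 8.27 normalized counts in DDC28 livers, against 2469, 2718, 2533 and 2802 in CTLD livers (log2 change -8.84 ± 0.61, adjusted p = 3.38e-05), and the sulfotransferase Sult2a8 fell by 8.09. Major urinary protein genes, carriers of scent molecules, made up 8 of the 12 genes with the largest falls. Mup3 had 35.1, 91.9, 48.8 and 68.9 normalized counts in DDC28 livers, against 15290, 19870, 19220 and 17800 in CTLD livers (log2 change -8.26 ± 0.28, adjusted p = 3.04e-07). The Mup genes are near-identical copies, so reads may have been split among them and single copies such as Mup2 (-10.93) or Mup13 (-9.71) are uncertain.

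Several female-biased genes were seen in DDC28 livers at levels that CTLD livers did not approach. Sult1e1, the estrogen sulfotransferase, had 184, 207, 416 and 516 normalized counts in DDC28 livers, against 0, 0, 1.305 and 1.09 in CTLD livers (log2 change 7.67 ± 0.39, adjusted p = 4.75e-09). Cyp2a4 had 213, 262, 204 and 153 normalized counts in DDC28 livers, against 5.07, 8.10, 3.92 and 7.64 in CTLD livers (log2 change 4.88 ± 0.23, adjusted p = 2.19e-10), although it shares much of its sequence with its neighbours of the Cyp2a family. Sult2a2 had 0 reads in CTLD livers and 35.8, 81.9, 66.9 and 53.3 normalized counts in DDC28 livers, at least 65.2-fold higher. Sult1e1 was higher in replicates 3 and 4 than in replicates 1 and 2. In the growth hormone axis itself 1 of 12 rose and 6 fell (median -0.51). Ghr, the receptor, had 509.7, 464, 534 and 555 normalized counts in DDC28 livers, against 2072, 2194, 2299 and 2188 in CTLD livers (log2 change -2.09 ± 0.09, adjusted p = 4.6e-11). Igf1, its main product in liver, had 2191, 2097, 2906 and 2480 normalized counts in DDC28 livers, against 4220, 4629, 3823 and 4516 in CTLD livers (log2 change -0.84 ± 0.11, adjusted p = 1.12e-05), a call lost under quantile normalization. Igfals, which carries it in blood, fell by 1.57. The kinase Jak2 rose (0.72 ± 0.14).

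Genes that burn and build fatty acids were mostly lower. Of the fatty acid oxidation genes 1 of 22 rose and 14 fell (median -0.96). Hadha, of the mitochondrial trifunctional protein, had 327, 354, 317 and 337 normalized counts in DDC28 livers, against 803, 968, 834 and 799.8 in CTLD livers (log2 change -1.34 ± 0.09, adjusted p = 1.21e-08). Acot1, a cytosolic thioesterase, had 17.2, 11.4, 8.14 and 11.02 normalized counts in DDC28 livers, against 81.1, 98.8, 88.7 and 98.2 in CTLD livers (log2 change -2.88 ± 0.21, adjusted p = 3.56e-08), and the thiolase Acaa2 fell (-1.16 ± 0.10). Of the lipogenesis genes 0 of 17 rose and 15 fell (median -0.83), with 2 rises and 9 falls under total-count scaling. The desaturase Fads2 had 617, 742, 493 and 547 normalized counts in DDC28 livers, against 1242, 1183, 1060 and 1172 in CTLD livers (log2 change -0.97 ± 0.11, adjusted p = 4.36e-06), and Fads1 (-0.83 ± 0.08) and the elongase Elovl5 (-1.06 ± 0.13) fell with it. Of the cholesterol synthesis genes 11 of 21 rose and 4 fell (median 0.33), and with replicates 3 and 4 as the only DDC28 livers 7 rose and 5 fell (median 0.14). The falls are no larger a share than that over all genes. Cyp51, the lanosterol demethylase of that pathway, had 1260, 1510, 998 and 949 normalized counts in DDC28 livers, against 673, 541, 588 and 571 in CTLD livers (log2 change 0.97 ± 0.13, adjusted p = 3.82e-05). Insig1, a brake on the pathway, fell (-1.10 ± 0.11), as did Sc5d (-0.76 ± 0.12), whose call was lost under quantile normalization.

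Of the urea cycle and amino acid genes 2 of 25 rose and 13 fell (median -0.46), but 5 rose and 8 fell under total-count scaling (median -0.098) and 6 rose and 8 fell under quantile normalization (median -0.013). Otc, which makes citrulline, had 594, 624, 678 and 639 normalized counts in DDC28 livers, against 1555, 1774, 2130 and 1936 in CTLD livers (log2 change -1.53 ± 0.10, adjusted p = 7.58e-09). The tyrosine catabolic enzymes Hpd (-1.26 ± 0.14), Fah (-0.71 ± 0.09) and Hgd (-0.59 ± 0.10) fell together. The calls in this list depended on the pair of DDC28 livers fitted. With replicates 1 and 2 only, 20 fell and 0 rose. With replicates 3 and 4 only, 9 fell and 6 rose.

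Cell cycle genes were near the limit of detection, and 10 of 24 passed the filter. Of these 7 of 10 rose and 0 fell (median 1.13). Ccnd1, the cyclin that starts the cycle, had 1019, 1293, 603 and 642 normalized counts in DDC28 livers, against 122, 272, 187 and 205 in CTLD livers, the first pair above the second (log2 change 2.16 ± 0.34, adjusted p = 0.00138). Mcm6, of the replication helicase, had 57.4, 52.0, 31.6 and 34.9 normalized counts in DDC28 livers, against 11.2, 9.71, 13.1 and 12 in CTLD livers (log2 change 1.81 ± 0.24, adjusted p = 1.62e-05), and Pcna rose by 0.52 ± 0.12. Birc5, a mitotic protein, rose (log2 change 1.08 ± 0.33, adjusted p = 0.0126) but lost its call without DDC28 replicate 1 (adjusted p = 0.0547, and 0.000774 to 0.27 over all alternatives), when 4 members rose. With replicates 3 and 4 as the only DDC28 livers 3 rose. The mitotic marker Mki67 did not enter the fit, with 22.2, 17.8, 0.904 and 6.43 normalized counts in DDC28 livers, against 11.2, 8.10, 7.83 and 6.55 in CTLD livers. Of the p53 targets 6 of 13 rose and 0 fell (median 0.58), with 10 rises under total-count scaling and 2 with replicates 3 and 4 only. Pmaip1, a death effector, had 31.5, 24.9, 19.9 and 15.6 normalized counts in DDC28 livers, against 2.03, 4.86, 3.92 and 2.18 in CTLD livers (log2 change 2.51 ± 0.37, adjusted p = 3.69e-05), and Mdm2 rose by 0.51 ± 0.15. Cdkn1a, the cell cycle inhibitor p21, had 146, 88.3, 215 and 573 normalized counts in DDC28 livers, against 149, 287, 91.3 and 96.0 in CTLD livers and was not called (log2 change 0.52 ± 0.67, adjusted p = 0.551).

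Circadian clock genes also moved, in livers whose hour of sampling is not given. In this list 10 of the 18 members that passed the filter rose and 5 fell, with a median log2 change of 0.87. The 5 falls are a share near that over all genes. Dbp, a clock-driven transcription factor, had 68.8, 90.4, 77.8 and 34.9 normalized counts in DDC28 livers, against 5.07, 3.24, 1.305 and 3.27 in CTLD livers (log2 change 4.03 ± 0.35, adjusted p = 2.04e-07). Per3, a period gene, had 43.7, 61.2, 81.4 and 33.1 normalized counts in DDC28 livers, against 4.05, 1.62, 2.61 and 4.36 in CTLD livers (log2 change 3.72 ± 0.34, adjusted p = 3.11e-07). Tef (2.39 ± 0.17) and the repressor Nr1d2 (2.29 ± 0.13) rose too, without overlap. Among immediate early genes 5 of 11 rose and 0 fell (median 1.33). This count was 9 without CTLD replicate 3 and 2 without CTLD replicate 1, without CTLD replicate 2, without DDC28 replicate 1 or without DDC28 replicate 3, and 3 without DDC28 replicate 2 or 4, with all 36 libraries in the fit or with no filter. Klf6 had 322, 443, 354 and 379 normalized counts in DDC28 livers, against 60.8, 51.8, 87.4 and 50.2 in CTLD livers (log2 change 2.59 ± 0.17, adjusted p = 1.38e-08), and Ier3 rose by 3.04 ± 0.31. Jund (0.32 ± 0.12) and Atf3 (1.80 ± 0.63) were called with overlapping groups. Both calls were lost without CTLD replicate 1 or 2 or DDC28 replicate 1 or 3, that of Atf3 also without DDC28 replicate 2 and that of Jund without DDC28 replicate 4 (adjusted p = 0.0562 to 0.105).

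DDC28 livers were also compared with DDC7 livers directly. In this comparison the length of feeding cannot be told apart from age or from the day or hour of sampling. The groups differed in 629 genes (5.67%), with 247 (2.23%) higher and 382 (3.44%) lower at day 28, in a fit over all 36 libraries. DDC7 livers had no part in choosing the genes tested, so genes high only at day 7 were left out. Counts of higher and lower genes, in lists too, therefore partly follow the filter. Both days are set against the same CTLD livers, from which DDC7 livers differed in 5452 genes (49.2%). Of the 18 male-biased genes 13 were lower at day 28 than at day 7 and 0 were higher. Mup3 had 15290, 19870, 19220 and 17800 normalized counts in CTLD livers, 1784, 1867, 966 and 880.3 in DDC7 livers and 35.1, 91.9, 48.8 and 68.9 in DDC28 livers (log2 difference of day 28 minus day 7 -4.47 ± 0.31, adjusted p = 5.55e-11). Slco1a1 had 1773, 1774, 1588 and 1696 normalized counts in CTLD livers, 70.4, 32.0, 14.9 and 21.2 in DDC7 livers and 0, 9.26, 1.81 and 5.51 in DDC28 livers (log2 difference of day 28 minus day 7 -3.03 ± 0.55, adjusted p = 0.000799). Each step was downward and the 3 groups did not overlap. Hsd3b5 had reached its low level by day 7, with 0.449 normalized counts on average in DDC7 livers. Of the 12 female-biased genes tested 6 were higher at day 28 and 0 were lower. Cyp2b9 had 0, 0, 0 and 0 normalized counts in CTLD livers, 4.36, 4.79, 17.9 and 1.42 in DDC7 livers and 149.8, 96.8, 157 and 144 in DDC28 livers (log2 difference of day 28 minus day 7 4.47 ± 0.57, adjusted p = 1.5e-06). Sult2a2 was at 0 in all CTLD and all DDC7 livers, and was seen in all 4 DDC28 livers. Lrtm2, a leucine-rich repeat membrane protein among the 12 largest rises, had 0, 0, 0 and 0 normalized counts in CTLD livers, 10.9, 21.6, 41.9 and 18.4 in DDC7 livers and 158, 167, 265 and 191 in DDC28 livers (log2 difference of day 28 minus day 7 3.14 ± 0.38, adjusted p = 5.43e-07).

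Some macrophage and clock genes were also higher at day 28 than at day 7. Of 18 macrophage genes 3 were higher at day 28, among them Gpnmb, with 1.01, 1.62, 0 and 3.27 normalized counts in CTLD livers, 186, 185, 177 and 229 in DDC7 livers and 769.9, 780.5, 744 and 546 in DDC28 livers (log2 difference of day 28 minus day 7 1.86 ± 0.55, adjusted p = 0.0405), and Ctss (log2 difference of day 28 minus day 7 0.99 ± 0.20, adjusted p = 0.00157). The Gpnmb call was lost when any 1 of the 8 libraries of these groups was left out (adjusted p = 0.0588 to 0.102). Of 18 clock genes 6 were higher and 1 was lower. Dbp had 5.07, 3.24, 1.305 and 3.27 normalized counts in CTLD livers, 7.26, 15.2, 4.98 and 3.54 in DDC7 livers and 68.8, 90.4, 77.8 and 34.9 in DDC28 livers (log2 difference of day 28 minus day 7 3.07 ± 0.64, adjusted p = 0.003). Abcc4 had 14.2, 8.10, 7.83 and 9.82 normalized counts in CTLD livers, 50.1, 55.9, 55.8 and 87.1 in DDC7 livers and 258, 276, 193 and 195 in DDC28 livers (log2 difference of day 28 minus day 7 1.89 ± 0.32, adjusted p = 0.00018), a stepwise rise. Cell cycle genes ran against this: 5 of 10 were lower at day 28 than at day 7 and 0 were higher. Birc5 had 11.2, 16.2, 14.3 and 9.82 normalized counts in CTLD livers, 91.5, 171, 127 and 212 in DDC7 livers and 54.5, 33.5, 16.3 and 20.2 in DDC28 livers (log2 difference of day 28 minus day 7 -2.32 ± 0.44, adjusted p = 0.000948), so its highest values were at day 7. The FXR target Nr0b2 had 138, 89.0, 114 and 105 normalized counts in CTLD livers, 92.2, 71.1, 37.9 and 42.5 in DDC7 livers and 24.4, 34.2, 23.5 and 26.6 in DDC28 livers (log2 difference of day 28 minus day 7 -1.06 ± 0.29, adjusted p = 0.0269), a call lost without DDC28 replicate 1, 3 or 4 or DDC7 replicate 1 or 2 (adjusted p = 0.0556 to 0.133). Abcb11 was lower at day 28 than at day 7 (log2 difference of day 28 minus day 7 -0.90 ± 0.19, adjusted p = 0.00369), and so were Glul (-1.32), Slc1a2 (-1.79) and Cyp7b1 (-1.19). These counts of calls rest on few livers. With the 8 libraries alone 532 genes were called higher. Without DDC28 replicate 3, 103 genes were called higher and 216 lower, without DDC28 replicate 4 116 and 228, and without DDC7 replicate 1 or 2 154 or 151 were called higher.

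**Figure D4:**
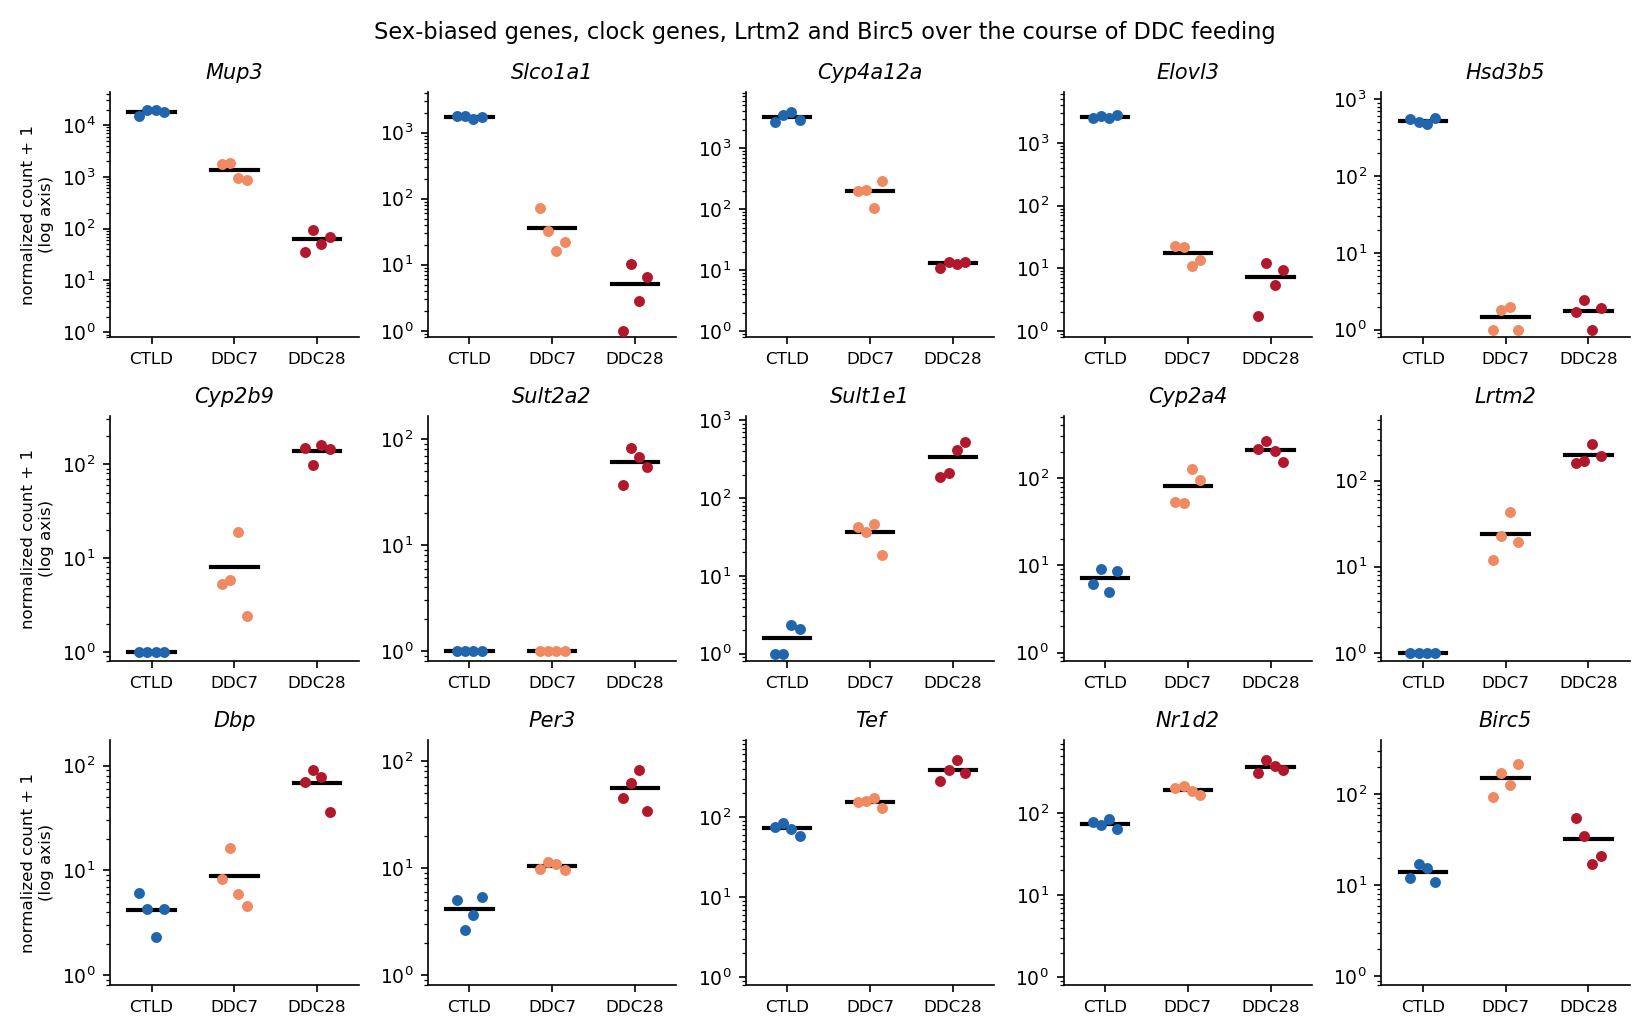
Points are the normalized counts (plus 1, log axis) of 4 livers each on control diet (blue), after 7 days of DDC (light red) and after 28 days of DDC (dark red), and black lines are group means. Male-biased genes in the top row fell by day 7, and Mup3, Slco1a1 and Cyp4a12a were lower again at day 28; of the female-biased genes, the first 4 of the middle row, Sult2a2 was seen at day 28 only, and Birc5, the last panel, was highest at day 7.

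The change with DDC at day 28 was set against the change with bile duct ligation at day 28, each with its own controls, by the difference of the 2 changes in a fit over all 36 libraries. That difference was called for 1308 genes (11.8%), with 724 (6.53%) more positive and 584 (5.27%) more negative with DDC. The genes tested were those kept by the DDC28 and CTLD libraries, so genes high only in BDL28 or SHAM livers were left out. Counts of more positive and more negative genes, in lists too, therefore partly follow the filter. BDL28 livers themselves differed from SHAM livers in 5459 genes (49.2%). These 2 directions held 392 and 302 genes with the 16 libraries of the 4 groups alone, and 1166 and 923 without BDL28 replicate 1, both moves of more than 1.5-fold. Standard errors of the DDC28 changes are from the fit of the DDC28 and CTLD libraries alone. Those of the BDL28 changes and of the differences are from all 36 libraries, so the 2 kinds cannot be compared. Of the 23 NRF2 targets 7 were more positive with DDC and 0 more negative. Srxn1 changed by 2.36 ± 0.10 with DDC28 and 0.90 ± 0.20 with BDL28 (difference of the changes 1.47 ± 0.29, adjusted p = 0.00157). Abcc4 changed by 4.41 ± 0.20 with DDC28 and 2.36 ± 0.32 with BDL28 (difference of the changes 2.05 ± 0.46, adjusted p = 0.00359). Of 18 macrophage genes 5 were more positive with DDC and 0 more negative. Mmp12 changed by 7.85 ± 0.34 with DDC28 and 3.39 ± 0.85 with BDL28 (difference of the changes 4.46 ± 1.20, adjusted p = 0.016), a call lost with the 16 libraries of the 4 groups alone (adjusted p = 0.0591, and 5.43e-05 to 0.0591 over all alternatives). Ctsd changed by 1.36 ± 0.08 with DDC28 and 0.41 ± 0.10 with BDL28 (difference of the changes 0.95 ± 0.14, adjusted p = 4.99e-05).

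Cyp2b10 had the largest such difference among the genes named by rule, with 6.12 ± 0.52 with DDC28 and 0.81 ± 0.88 with BDL28 (difference of the changes 5.31 ± 1.24, adjusted p = 0.00704). It had 147 ± 256 normalized counts in BDL28 livers and 24.3 ± 7.41 in SHAM livers (SD, n = 4 each). The macrophage gene Cd5l (1.65), the sterol pump Abcg8 (1.21), the heme carrier Slc48a1 (0.97) and Sqstm1 (0.62) were likewise more positive with DDC. Hamp changed by 0.03 ± 0.22 with DDC28 and 1.84 ± 0.33 with BDL28 (difference of the changes -1.81 ± 0.46, adjusted p = 0.0117). Urod (-0.62) and Serpina1a (-0.62) were also more negative with DDC. Each of the genes named in this and the preceding paragraph for this comparison was called with any 1 of the 16 libraries left out. The median difference of the changes was -0.01 over the 18 male-biased genes and 0.01 over the 15 cholangiocyte genes.

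**Figure D5:**
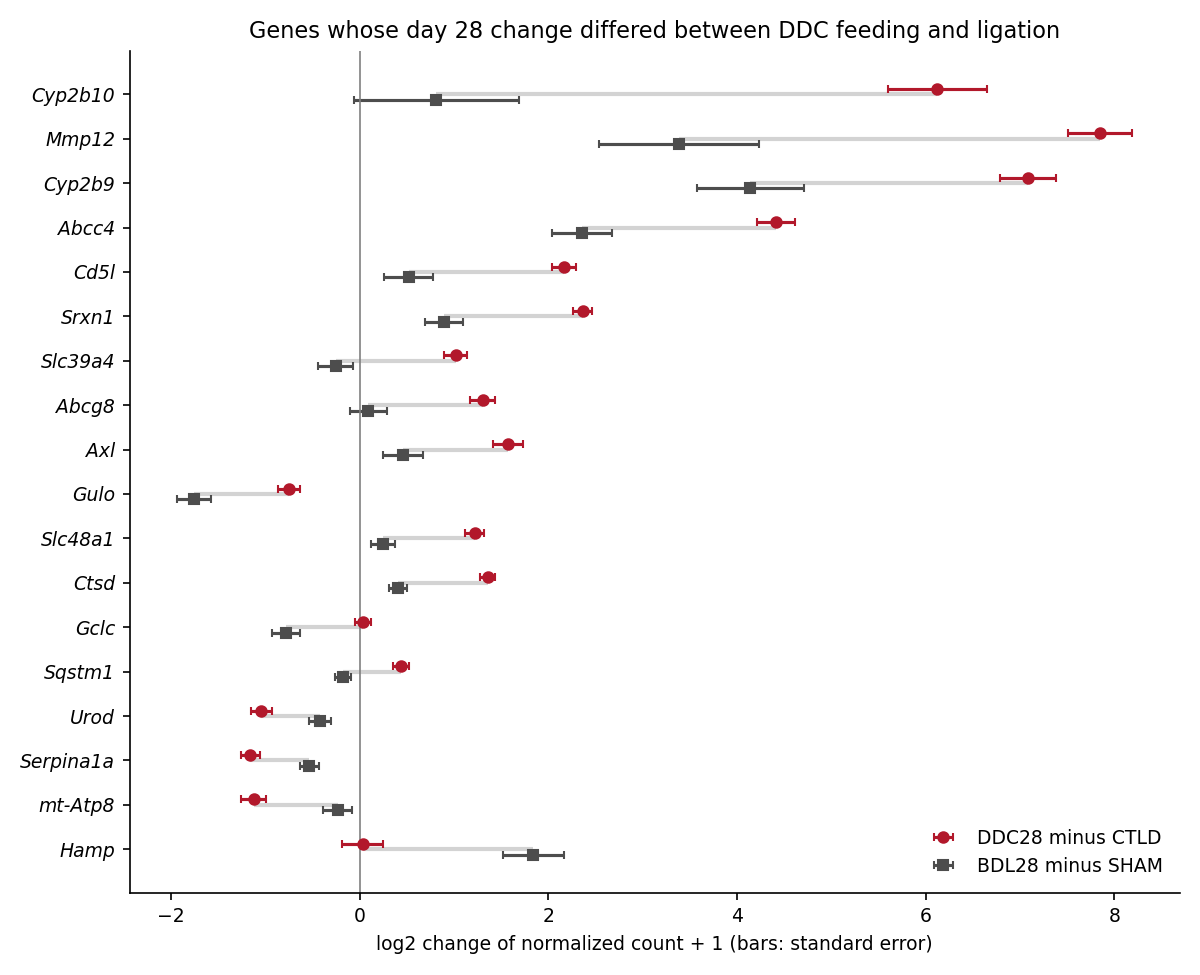
For genes named by rule whose change differed between the models with any 1 library left out, the red circle is the log2 change of DDC28 minus CTLD livers and the grey square that of BDL28 minus SHAM livers, with bars of 1 standard error. Cyp2b10 and Mmp12 at the top lie farthest to the right of their ligation values, and Hamp at the bottom farthest to the left. With the 16 libraries of the 4 groups alone the calls of Mmp12, Axl, Gulo and mt-Atp8 were lost.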

How the data were processed

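Liver RNA of C57BL/6 mice was sequenced as QuantSeq 3′ libraries with unique molecular identifiers, per the labels' protocols. The submitters' processing notes name, without roles, build GRCm39 and the tools RSEM 1.3.1, STAR 2.7.9a, UMI-tools 1.1.1, DESeq2 and Trim Galore. The authors deposited 1 table of scaled counts (unit: signal), 29546 genes by 36 libraries. In the 8 libraries compared here 100% of nonzero values were whole multiples of the value of 1 read (tolerance 0.001), so reads were recovered. The libraries held 2791543 to 3449306 reads in DDC28 and 2081093 to 2912971 in CTLD livers, which limits low genes. Counting intervals (95%) cover counting error only.

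Genes at 10 or more in at least 4 of the 8 libraries were tested with limma 3.58.1 (R 4.3.3, trended and robust variance, 2-sided, Benjamini-Hochberg adjustment over 11089 genes, threshold 0.05) on log2(value + 1), which understates changes of low genes. Contrasts with DDC7 and with BDL28 used 1 fit of all 36 libraries. On the recovered reads edgeR 4.0.16 (quasi-likelihood) called 3114 genes higher and 2879 lower, and DESeq2 1.42.0 called 2845 and 2707. The other alternatives were pseudocounts of 0.5 and 5, other filters, total-count and quantile scaling, replicate blocks and leaving out each library. The scripts' test was checked on simulated data.

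The 43 gene lists, the members and the tests were chosen with earlier results of these data known. Genes are named by rule: the 12 largest rises and falls without overlap and with a higher mean of at least 50 (predicted genes left out), 42 anchor genes and up to 4 members per list with the lowest adjusted p; others are said to be chosen afterwards. Some genes are not reported here. Symbols came from the reference tables for 29121 IDs, 425 had none and 57 share a symbol.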

Additional observations from a re-analysis of the deposited data

Results flagged for a closer look

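Of the genes named here, 53 had a change with DDC that differed between day 28 and day 7 at an adjusted p under 0.05 in limma. The test compares the DDC28 and DDC7 livers directly. The values are log2 differences of DDC28 minus DDC7 livers. Higher at day 28 were 21 genes, namely Sult2a2 (5.86), Cyp2b9 (4.47), Lrtm2 (3.14), Sult1e1 (3.14), Dbp (3.07), Jchain (2.92), Prom1 (2.38) and Per3 (2.35), and by smaller amounts Abcc4 (1.89), Gpnmb (1.86), Igkc (1.84), Tef (1.28), Myof (1.12), Timp2 (1.09), Pf4 (1.03), Ctss (0.99), Lpl (0.98), Cd36 (0.97), Abcg8 (0.80), Rbm3 (0.75) and Ppara (0.45). Lower at day 28 were 32 genes. The largest of these differences were in Mup2 (-6.98), Mup13 (-6.37), Mup3 (-4.47), Cyp4a12a (-3.88), Ces3a (-3.50), Car3 (-3.36), Slco1a1 (-3.03), Sult2a8 (-2.86), Birc5 (-2.32) and C8a (-2.07). Differences of 1 to 2 log2 units were found for Slc1a2 (-1.79), Cyp8b1 (-1.70), Acot1 (-1.58), Hspb1 (-1.58), Ifit1 (-1.51), Cyp2f2 (-1.43), Glul (-1.32), Lgr5 (-1.25), Cyp7b1 (-1.19) and Nr0b2 (-1.06). Smaller ones were found for Slc30a10 (-0.99), Abcb11 (-0.90), Cyp2d9 (-0.88), Stab2 (-0.80), C9 (-0.74), Dnase1l3 (-0.67), Otc (-0.66), Clec4g (-0.62), H2-K1 (-0.60), Sqstm1 (-0.52), Ghr (-0.46) and B2m (-0.44). Of these calls, those of Clec4g, Cyp2d9, Gpnmb, Hspb1, Igkc, Lgr5, Myof, Nr0b2, Otc, Pf4, Ppara, Rbm3 and Slc30a10 were lost without at least 1 of the 8 libraries of these groups.

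Single livers lay far from the other 3 of their group for 16 of the 381 gene and group pairs searched, with a gap to the nearest other liver, as a share of the group's range, above Dixon's critical value for 4 samples. Chance alone flags about 1 in 20 groups. Values are normalized counts, each with that of the nearest other liver. In DDC28 livers these were Abcg8 in replicate 1 (169.9, next 192), Car3 in replicate 3 (37.1, next 70.2), Cd36 in replicate 3 (841, next 705), Ctsd in replicate 1 (1232, next 1130), Gpnmb in replicate 4 (546, next 744), Jchain in replicate 4 (32.1, next 19.2) and Slc1a2 in replicate 4 (113, next 80.5). In CTLD livers they were Abcc3 in replicate 4 (139, next 115), Anxa3 in replicate 1 (12.2, next 17.0), Car3 in replicate 1 (8599, next 9811), Col3a1 in replicate 1 (96.3, next 68.0), Jchain in replicate 4 (9.82, next 4.05), Oit3 in replicate 2 (76.1, next 108), Sox9 in replicate 4 (132, next 215), Sprr1a in replicate 3 (1.305, next 0) and Tgm2 in replicate 2 (261, next 220.4).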

How the results depend on the processing

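Of 176 named genes called in DDC28 against CTLD livers, 157 kept call and direction under every alternative run, 17 lost the call under at least 1, and 3 turned (Prdx1 did both): Prdx1 (0.13 with total-count scaling, 0.55 with quantile normalization), Alb (0.025, quantile) and H2-K1 (0.088, quantile). The genes called higher and lower stayed within 1.5-fold of 3113 and 2856 except with total-count scaling, which gave 5178 and 1453. Leaving out single libraries gave 2787 to 2981 higher and 2642 to 2774 lower. No filter gave 3853 and 3045 of 24205 genes. The cause of the change with scaling was not tested.

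Replicate numbers did not pair DDC28 with CTLD livers: same-numbered livers had residual correlations of 0.015 to 0.055. With the replicate block 3102 genes were higher and 2860 lower. The block by title numbers, 3 pairs, gave 2602 and 2440, and the same 6 libraries without it 2586 and 2422 (added after seeing the data). The Gsta1 call was lost with that block (adjusted p = 0.0845) and not in the same 6 libraries without it. Also added then, DDC28 replicates 1 and 2 alone gave 2536 and 2488, and 3 and 4 alone 2649 and 2678.

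For DDC28 against DDC7, 247 genes higher became 532 with the 8 libraries alone and 532 with the replicate block, and 103 to 298 higher and 216 to 408 lower with single libraries left out. That block, whose numbers did not pair DDC28 with DDC7 livers (residual correlations of -0.075 to 0.106), lost the calls of Birc5, Cyp8b1, Mup13, Mup2, Slco1a1 and Sult1e1 (adjusted p = 0.0567 to 0.178), and the 8 libraries alone that of Cyp8b1 (0.0835). For the DDC against the ligation change, 724 and 584 became 392 and 302 with 16 libraries alone, and 407 and 324 with the replicate block; Mmp12 lost its call under both and Cyp2b10 under the block. Total-count scaling left 380 lower. Leaving out single libraries gave 515 to 1166 and 410 to 923. Depth limits low genes: 14 of 24 cell cycle and 10 of 12 neutrophil markers could not be tested.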

Other observations

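The genes given here were chosen after their values were seen. Cold-inducible RNA-binding proteins were higher in DDC28 livers. Cirbp had 216, 199, 355 and 360.1 normalized counts in DDC28 livers, against 16.2, 32.4, 20.9 and 26.2 in CTLD livers (log2 change 3.50 ± 0.24, adjusted p = 2.31e-07). Rbm3 had 589, 696, 1045 and 974 normalized counts in DDC28 livers, against 91.2, 64.8, 65.2 and 122 in CTLD livers (log2 change 3.26 ± 0.26, adjusted p = 9.73e-06). Both were higher in the second pair of DDC28 livers than in the first, and no DDC28 liver overlapped with CTLD. Hsph1, a large heat shock protein, had 37.3, 38.5, 17.2 and 26.6 normalized counts in DDC28 livers, against 329, 497, 602 and 431 in CTLD livers (log2 change -3.95 ± 0.26, adjusted p = 9.76e-07). Fkbp5, a glucocorticoid-induced chaperone partner, had 250.2, 239, 336 and 457 normalized counts in DDC28 livers, against 39.5, 47.0, 39.1 and 34.9 in CTLD livers (log2 change 2.92 ± 0.18, adjusted p = 1.64e-08). Cd36, a fatty acid and scavenger receptor, had 705, 689, 841 and 686 normalized counts in DDC28 livers, against 100.4, 97.1, 120 and 118 in CTLD livers (log2 change 2.74 ± 0.11, adjusted p = 3.13e-11), and Lpl, the lipoprotein lipase, had 2417, 2722, 1984 and 2000 normalized counts in DDC28 livers, against 231, 198, 188 and 226 in CTLD livers (log2 change 3.42 ± 0.11, adjusted p = 4.96e-12). Akr1b7, an aldose reductase relative, had 0 reads in CTLD livers and was at least 71.1-fold higher in DDC28 livers against 3 reads over the group.

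Secreted and metabolic hepatocyte genes outside the lists were among the largest falls. Car3, a cytosolic carbonic anhydrase, had 70.2, 72.6, 37.1 and 74.4 normalized counts in DDC28 livers, against 8599, 9811, 9918 and 9966 in CTLD livers (log2 change -7.26 ± 0.21, adjusted p = 7.01e-09). Ces3a, a carboxylesterase, had 28.7, 35.6, 15.4 and 29.4 normalized counts in DDC28 livers, against 3133, 4018, 4211 and 3527 in CTLD livers (log2 change -7.09 ± 0.23, adjusted p = 1.95e-08). Dio1, the liver deiodinase that activates thyroid hormone, had 12.9, 12.8, 8.14 and 11.02 normalized counts in DDC28 livers, against 266, 376, 561 and 404 in CTLD livers (log2 change -5.01 ± 0.21, adjusted p = 1.52e-10). The groups did not overlap in any of these. Of the terminal complement components, C9 had 695, 656, 412 and 546 normalized counts in DDC28 livers, against 2634, 3295, 3459 and 2880 in CTLD livers (log2 change -2.43 ± 0.15, adjusted p = 1.05e-07), and C8a had 323, 347, 94.96 and 214 normalized counts in DDC28 livers, against 2013, 2142, 2195 and 1883 in CTLD livers, with replicate 3 the lowest (log2 change -3.23 ± 0.42, adjusted p = 0.000703).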
